A study of Mus musculus with 16 samples.

Results

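The genes described here are 60 ligands and receptors of axon guidance, taken from a named list of ephrins, Eph receptors, semaphorins, plexins, neuropilins, Slits, Robos, netrins and netrin receptors, out of 21631 genes that code for protein on the autosomes and chromosome X. All 60 were found by symbol in the RefSeq gene table of the mouse build GRCm38. None lies on chromosome X. For each gene the share of the window covered by peaks of H3K27me3 was measured, the window being the gene body with 5 kb added on each side.

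H3K27me3 is the trimethylation of lysine 27 of histone H3, and the study mapped it by ChIP-seq (sequencing of immunoprecipitated chromatin) in B cells purified from mouse spleen with CD43 beads. The C57BL/6 mice were 6 to 8 weeks old and were either wild type (WT) or triple mutant for Ifih1, Rigi and cGAS, genes of innate sensors that detect RNA or DNA in the cytosol. All cultures received BAFF and IL-4, at 2 ng/mL each, and were kept for 48 h in the solvent DMSO or in 1 µM GSK343, an inhibitor of the methyltransferase EZH2. Each genotype and treatment had 2 ChIP and 2 input samples but only 1 list of broad peaks, so no spread between replicates can be given and every difference between lists is a description without a test. The mutant lists carry a 1 at the end of their name prefix, and whether they hold both replicates or replicate 1 alone cannot be told apart. Read depth behind the lists is unknown. The lists held 39495 peaks for WT DMSO, 11903 for WT GSK343, 49803 for mutant DMSO and 10847 for mutant GSK343, and this order of the 4 lists is kept below.

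EZH2 is the catalytic subunit of Polycomb repressive complex 2, which methylates H3K27 over silent genes of development, often around starts rich in CpG dinucleotides. Axon guidance genes steer growing nerve fibres and migrating cells: ephrins bind Eph receptor tyrosine kinases, semaphorins bind plexins (with neuropilins as partners for most of class 3), Slits bind Robo receptors, and netrins bind Dcc and the Unc5 receptors. Several of them also act between immune cells. Sema4d (CD100) is a surface protein of lymphocytes, Sema4a acts in the contact of antigen-presenting cells and T cells, and Sema7a (CD108) is a lipid-anchored semaphorin of lymphocytes and monocytes.

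Starts and the DNA before them came from RefSeq promoters of build GRCm38.p6, which hold 51 of the 60 genes with 67 annotated starts. A start counts here as in a peak when a peak overlapped any base from 250 before it to 50 after it. The 250 bases before the start are shown for 6 genes because they span the range from a start that was in a peak in every list to one that was in none, and from CpG-poor to CpG-rich. They run 5′ to 3′ on the strand of the gene, in lower case with each CG dinucleotide in capitals. Efna2 and Sema3c started within a peak in all 4 lists, with 25 and 39 CG dinucleotides (chr10:80179232-80179481, plus strand, and chr5:17574566-17574815, plus strand). The Epha3 start (chr16:63864176-63864425, minus strand, 16 CG) was in a peak in the DMSO lists only. The outermost Sema4a start (chr3:88461183-88461432, minus strand) was in a peak in all 4 lists although the stretch holds 2 CG. Sema4b (chr7:80186620-80186869, plus strand, 20 CG) and Sema3e (chr5:14025026-14025275, plus strand, 7 CG) had no peak at the start in any list.
Efna2: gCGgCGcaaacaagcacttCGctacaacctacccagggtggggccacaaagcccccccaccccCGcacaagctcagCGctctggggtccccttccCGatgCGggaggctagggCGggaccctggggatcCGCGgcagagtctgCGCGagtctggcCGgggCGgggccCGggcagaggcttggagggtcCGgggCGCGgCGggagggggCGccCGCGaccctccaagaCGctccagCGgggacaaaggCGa
Sema3c: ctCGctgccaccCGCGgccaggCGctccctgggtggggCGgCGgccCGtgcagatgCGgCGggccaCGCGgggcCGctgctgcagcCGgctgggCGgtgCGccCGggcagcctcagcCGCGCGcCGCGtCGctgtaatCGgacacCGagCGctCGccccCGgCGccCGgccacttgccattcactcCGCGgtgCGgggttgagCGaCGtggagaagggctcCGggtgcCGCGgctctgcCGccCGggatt
Epha3: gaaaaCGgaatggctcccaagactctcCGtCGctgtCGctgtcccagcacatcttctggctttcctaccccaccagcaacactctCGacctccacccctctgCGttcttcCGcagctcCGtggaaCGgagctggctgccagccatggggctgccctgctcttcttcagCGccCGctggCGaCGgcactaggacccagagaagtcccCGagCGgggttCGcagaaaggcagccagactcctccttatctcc
Sema4a: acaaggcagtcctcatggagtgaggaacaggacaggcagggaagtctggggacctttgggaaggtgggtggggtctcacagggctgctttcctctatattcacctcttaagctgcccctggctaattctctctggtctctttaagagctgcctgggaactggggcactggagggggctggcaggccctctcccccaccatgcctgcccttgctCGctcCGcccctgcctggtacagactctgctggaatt
Sema4b: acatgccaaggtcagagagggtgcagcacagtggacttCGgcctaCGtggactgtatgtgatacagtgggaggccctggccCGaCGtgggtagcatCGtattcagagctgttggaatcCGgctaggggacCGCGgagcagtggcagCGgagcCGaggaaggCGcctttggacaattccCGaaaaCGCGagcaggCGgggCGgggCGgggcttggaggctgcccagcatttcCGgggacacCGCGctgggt
Sema3e: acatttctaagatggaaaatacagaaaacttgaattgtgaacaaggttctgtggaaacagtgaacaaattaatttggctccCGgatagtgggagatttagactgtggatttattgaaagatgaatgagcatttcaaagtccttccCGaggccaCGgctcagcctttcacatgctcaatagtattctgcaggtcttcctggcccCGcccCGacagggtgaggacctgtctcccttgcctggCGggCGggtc

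Most axon guidance genes had a peak of H3K27me3 in these B cells. A peak overlapped 54 of the 60 windows in WT DMSO, against 43.5% of all protein-coding genes. The WT GSK343 list overlapped 49 of 60 (26.3% of all genes), the mutant DMSO list 56 of 60 (48.9%) and the mutant GSK343 list 48 of 60 (24.4%). Of the 60 genes, 46 had a peak in all 4 lists, as did 22.1% of all genes. No peak was found in 4 (Sema3e, Sema3g, Sema4b and Sema4d), against 49.6% of all genes. The median covered share of a window was 6.35%, 3.30%, 7.86% and 2.28%, while the median over all protein-coding genes was 0 in each list. The 4 lists had 166, 101, 185 and 105 peaks in these windows. With at least 5% of the window covered, the counts were 34, 24, 36 and 17 of 60, against 27.9%, 13.0%, 34.4% and 11.0% of all genes. In bulk chromatin a mark on some of the cells and a weaker mark on all of them cannot be told apart.

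Long windows are hit by a peak more easily, and these genes are long, with a median window of 96.96 kb against 27.3 kb for all genes. All genes were therefore divided into 5 equal classes by window length. No axon guidance gene fell in the shortest class. In WT DMSO 5 of 6, 8 of 10, 11 of 12 and 30 of 32 were overlapped in the following classes, against 43.3%, 42.5%, 44.7% and 60.4% of all genes of those lengths. For WT GSK343 the counts were 5, 8, 11 and 25 against 26.1%, 23.1%, 26.3% and 41.4%. The covered share went the other way: the median in WT DMSO was 50.5% for the 6 genes of the class above the shortest and 1.75% for the 32 of the longest. The classes between had medians of 21.3% and 14.4%. By the median, short windows were thus covered over a larger portion than long ones. Single genes could differ from this: Sema3b, in a window of 21.6 kb, had no WT DMSO peak.

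**Figure D1:**
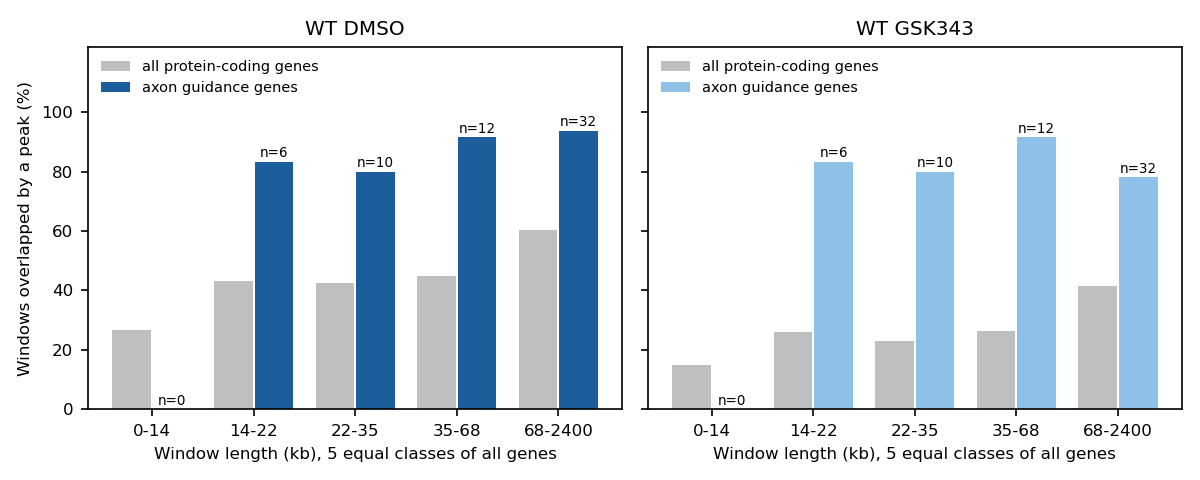
Percentage of windows (gene body plus 5 kb each side) overlapped by at least 1 peak in the 2 WT lists, by 5 equal classes of window length in kb; grey bars are all protein-coding genes, coloured bars the axon guidance genes, and n is their number in each class. The coloured bars are taller than the grey ones in each of the 4 classes that hold axon guidance genes.

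Among the ligands, the ephrins stood highest, with a median covered share of 44.2%, 17.96%, 57.1% and 10.5% over 7 genes, all of them overlapped in all 4 lists. Their windows were also the shortest, with a median of 19.2 kb. In the other ligand families it ran from 36.6 kb (class 4 semaphorins) to 336 kb (Slits). Family and window length cannot be told apart in this order. Efna3, which encodes a lipid-anchored ephrin-A (chromosome 3, 89313899 to 89322939), was covered by 91.3%, 53.1%, 93.5% and 48.3%. Efna2 (chromosome 10, 80179482 to 80190010) was covered by 86.8%, 64.6%, 89.5% and 51.8%. The bodies of both genes were covered in full in both DMSO lists, and what remained under GSK343 was close to or above 50% of the window. The neighbouring Efna4 (chromosome 3, 89333393 to 89338028) had 44.2%, 21.5%, 57.1% and 8.38%, and its window shares a peak with that of Efna3 in every list but mutant GSK343. Efna1 (chromosome 3, 89271730 to 89280951) had 31.1%, 17.96%, 39.9% and 14.8%. Efnb3, a transmembrane ephrin-B (chromosome 11, 69554092 to 69561150), was high under DMSO at 56.8% and 67.5% and low under GSK343 at 12.9% and 10.5%. The lowest ephrin was Efna5, in a window of 288 kb, with 4.07%, 1.42%, 5.12% and 1.46%.

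**Figure D2:**
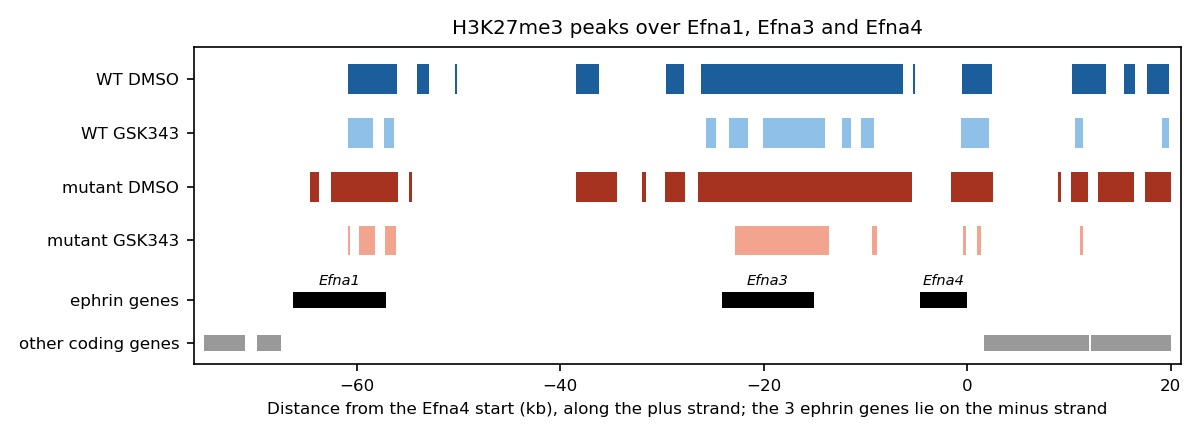
Peaks of the 4 lists over the Efna1, Efna3 and Efna4 genes, plotted by distance in kb from the Efna4 start; coloured bars are peaks, black bars the ephrin genes and grey bars other protein-coding genes. One WT DMSO peak of 19.8 kb spans Efna3, and 5 shorter WT GSK343 peaks lie in the Efna3 window.

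The Efna3 locus shows how the peaks themselves differed. In WT DMSO a single peak of 19.8 kb spanned the gene and reached the window of Efna4, and in mutant DMSO a peak of 21.04 kb did so. In WT GSK343 the Efna3 window held 5 peaks, the widest 6.07 kb, and in mutant GSK343 1 peak of 9.19 kb. The highest fold over background, which is the authors' value for each peak, was 4.18 under DMSO and 4.38 under GSK343 in WT. Within its own list the WT GSK343 value ranked at percentile 99.8, so the strongest of the narrower peaks at Efna3 ranked high among all peaks of that list. In the mutant the highest fold was 4.96 under DMSO, at percentile 99.7, and 3.48 under GSK343, at percentile 92.9.

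Semaphorins ran from broad coverage to none. Among the secreted class 3 genes, 4, 3, 5 and 4 of 7 were overlapped, and the median was 0.20%, 0, 1.35% and 0.04%. Sema3f, a repellent that signals through Nrp2 (chromosome 9, 107681499 to 107710475), was covered by 47.6%, 15.9%, 77.9% and 18.5%, far above the rest of its class. Sema3c, whose start is shown above, had 1.90%, 0.79%, 2.44% and 0.76% of a 165 kb window, from 1 peak in each list. Sema3b was covered only in mutant DMSO, by 9.70%, and Sema3e and Sema3g in no list. Sema3a, the classic collapsing factor of growth cones, had 0.20% in WT DMSO and 0.39% in mutant DMSO, none in WT GSK343 and 0.04% in mutant GSK343.

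Of the transmembrane class 4 genes, 4 of 6 were overlapped in all lists. Sema4c, a ligand of Plxnb2 (chromosome 1, 36548639 to 36560699), had 52.6%, 32.8%, 56.2% and 23.8%. Sema4f (chromosome 6, 82911884 to 82939769) had 34.7% and 48.6% under DMSO but only 4.16% and 2.59% under GSK343. Sema4g had 25.6%, 13.3%, 18.7% and 4.89%. At Sema4g, 8, 7, 8 and 8 peak numbers are missing from the running count of the lists. They fall between the last peak before its window and the first one after it, so peaks that the authors removed may have lain in the window. One number is also missing around Efna5 and around Slit3 in mutant GSK343. In class 5 to 7, Sema6c (chromosome 3, 95160420 to 95174050) was highest under DMSO, with 65.4%, 29.2%, 80.2% and 26.8%. Under GSK343 Sema6b (chromosome 17, 56123085 to 56140343) was the higher, with 47.5%, 33.6%, 55.7% and 27.9%. Both are membrane semaphorins known as ligands of A-type plexins.

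The 3 semaphorins best known from immune cells differed from each other. Sema4d (chromosome 13, 51685529 to 51793678) had no peak in any list, over 3 annotated starts and a window of 118 kb. Sema7a (chromosome 9, 57939596 to 57962865) had 1 peak, in mutant DMSO alone, over 2.42% of the window and outside the gene body, with a fold of 2.23. Sema4a (chromosome 3, 88435959 to 88461182) was covered by 32.7%, 18.3%, 40.9% and 6.77%. It is therefore the one of the 3 with H3K27me3 at its starts: 3 of its 4 starts were in a peak in all lists. The direction of its difference between treatments in WT depended on how many peaks were taken. When every list was cut to its 10847 top peaks by p-value, coverage of Sema4a in WT was 13.0% under DMSO and 17.3% under GSK343. In the mutant it was still lower under GSK343, at 6.77% against 35.8%. Sema4b (chromosome 7, 80186870 to 80226646) is another class 4 gene without a peak. It differs from Sema4d at the annotated starts, since its 2 hold 20 and 23 CG dinucleotides and the 3 of Sema4d hold 1 or 2. Those of Sema4d lie inside the gene, with the outermost at 51756683 on the minus strand. The sequence at the outer end of Sema4d was therefore not counted.

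The secreted Slits and netrins had peaks in every list. Slit1 (chromosome 19, 41597824 to 41747275) had 25.2%, 5.72%, 27% and 2.76%, with 13, 8, 11 and 5 peaks. Slit2 and Slit3, in windows of 336 and 597 kb, stayed between 0.35% and 2.41%. Ntn1, the founding netrin (chromosome 11, 68209364 to 68386826), had 10.5%, 4.91%, 18.1% and 4.30%, and Ntn4 had 10.3%, 3.61%, 15.7% and 2.93%. The 2 netrins were nearly level in WT DMSO, and Ntn1 was the higher in all 4 lists.

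**Figure D3:**
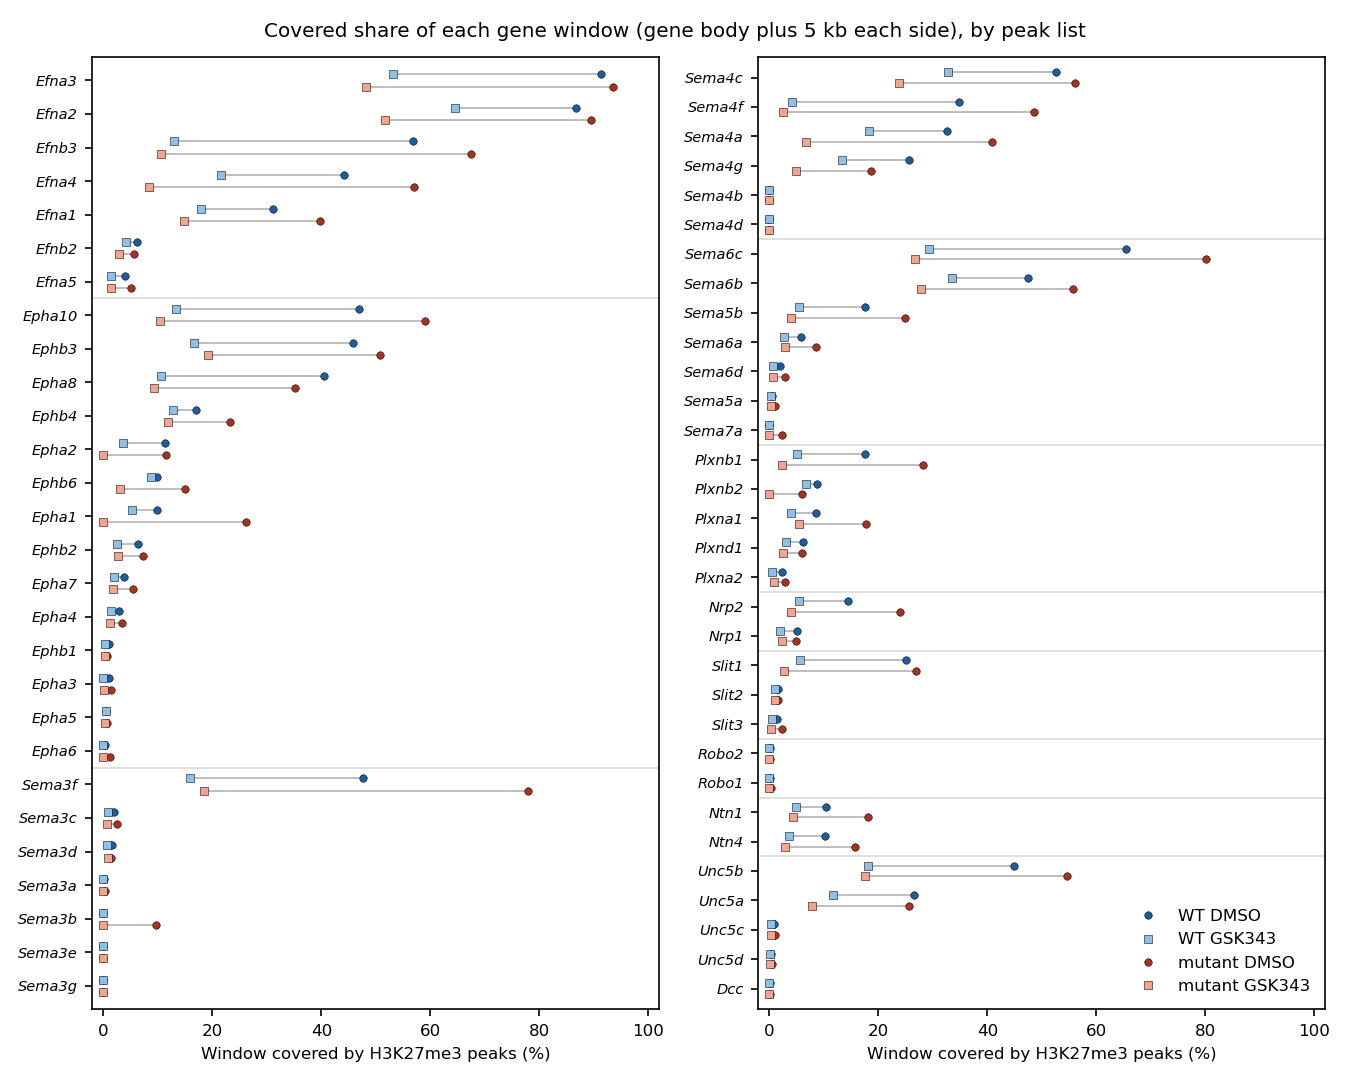
Covered share of the window in percent for each of the 60 genes, grouped by family and ordered within a family by WT DMSO; circles are DMSO lists, squares GSK343 lists, blue WT and red mutant, and grey lines join the treatments of a genotype. Efna3 and Efna2 lie farthest to the right, and Sema3e, Sema3g, Sema4b and Sema4d lie at 0 in all 4 lists.

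Among the receptors, all 14 Eph kinases had a peak in both DMSO lists, with medians of 8.12%, 3.04%, 9.39% and 1.49%. Epha10, a member of the family without an active kinase (chromosome 4, 124881530 to 124917801), had 46.9%, 13.4%, 59.1% and 10.4%. Ephb3 (chromosome 16, 21204620 to 21223309) had 45.9%, 16.6%, 50.8% and 19.3%. For Epha8 (chromosome 4, 136929419 to 136956859) the values were 40.4%, 10.6%, 35.2% and 9.28%. In both DMSO lists these 3 were above the other Eph receptors. Ephb4 had 17.0%, 12.7%, 23.3% and 11.9%, and under GSK343 it was above Epha8 in both genotypes and above Epha10 in the mutant. At the other end Epha6, in a window of 979 kb, had 0.26% and 1.15% under DMSO and none under GSK343; 1 peak number is missing from the mutant DMSO list around its window. A small covered share could go with a high or a low fold. The Epha7 start peak had a fold of 4.76, at percentile 99.9 of WT DMSO, in a window covered by 3.85%, and the highest Ephb1 peak had a fold of 5.17, at percentile 99.8 of mutant DMSO, in a window covered by 0.75%. Both were chosen as examples after their values were seen. In contrast, the highest Epha6 peak was at percentile 76.6 of WT DMSO, and those of Robo1 and Dcc at 59.3 and 51.0.

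Plexins and neuropilins were covered less than the highest semaphorins. Plxnb1, a receptor of Sema4d (chromosome 9, 109093849 to 109119915), had 17.6%, 5.08%, 28.2% and 2.28%. Plxnb2, which binds Sema4c (chromosome 15, 89155546 to 89182018), had 8.75%, 6.69% and 6.01%, and none in mutant GSK343. Plxna2 was the lowest plexin in all lists but mutant GSK343, at 2.4%, 0.56%, 2.82% and 0.91%. Nrp2 (chromosome 1, 62703317 to 62818692) had 14.4%, 5.50%, 23.9% and 3.90%, and Nrp1 had 5.13%, 2.01%, 4.88% and 2.27%. Nrp2 was the higher neuropilin in all 4 lists.

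Robo1 and Robo2, receptors of the Slits, had small covered shares in very long windows. Robo2 had 0.15%, 0.03%, 0.18% and 0.03% of a 1565 kb window from 1 peak in each list, and 1 of its 3 starts was in a peak in all 4 lists. Robo1 had 0.04% and 0.28% under DMSO and none under GSK343. Of the netrin receptors, Dcc had 0.07% and 0.15% under DMSO and none under GSK343, whereas Unc5b (chromosome 10, 60762594 to 60831581) had 45.0%, 18.1%, 54.6% and 17.5%. Unc5a was covered by 26.6%, 11.8%, 25.7% and 7.84%. Unc5c had 0.83%, 0.39%, 0.97% and 0.29%, and Unc5d 0.31%, 0.07%, 0.43% and 0.11%. Of the Unc5 receptors, which turn netrin into a repellent, Unc5a and Unc5b were thus widely covered, in windows of 70.9 and 79.0 kb. Unc5c, Unc5d and the attractive receptor Dcc were below 1% in all 4 lists, in windows of 379, 583 and 1108 kb. The start of Unc5c was nevertheless in a peak in all 4 lists.

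The effect of EZH2 inhibition was read within each genotype. Coverage was lower under GSK343 in 53 of the 54 genes with a WT DMSO peak, where 99.3% of all such genes were lower, and in 56 of 56 in the mutant (99.9%), so the direction is that of nearly every marked gene. The exception, Epha5, had 0.48% under DMSO and 0.51% under GSK343 in WT, and is named because of this value. The group lay above the background in how often a peak remained. A GSK343 peak was still present in 49 of 54 windows in WT, against 60.1% of all genes with a DMSO peak, and in 48 of 56 in the mutant, against 49.6%. Windows of all lengths enter these background shares.

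By bases, the median share of the DMSO-covered sequence that also lay in a GSK343 peak, called the kept share here, was 39.8% in WT and 26.3% in the mutant. For all protein-coding genes with a DMSO peak the medians were 14.7% and 0. Less than 50% was kept in 40 of 54 genes in WT (83.8% of all such genes) and in 49 of 56 in the mutant (93.4%). Summed over the windows, 40.1% of DMSO bases were kept in WT and 26.0% in the mutant, against 31.2% and 18.2% over all genes. The difference from other genes was therefore smaller by bases than by the median gene.

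The kept share varied widely among the 18 genes with at least 20% of the window covered in WT DMSO. Efna2 kept 74.4% in WT and 57.8% in the mutant, and Sema6b 70.8% and 50.1%. Efna3 kept 58.2% and 51.6%, Efna1 57.7% and 37.0%, and Sema4c 57.3% and 42.4%. These 5 had the largest kept shares in WT, and 3 of them are ephrins. The ephrins Efna4, which kept 48.4% and 14.7%, and Efnb3 were also among the 18 and kept less. The smallest were those of Sema4f, at 12.0% and 5.33%, and Efnb3, at 19.9% and 15.6%. Slit1 kept 22.7% and 10.2%, Epha8 26.1% and 26.3%, and Epha10 28.5% and 17.7%. Genes with like coverage under DMSO could thus differ in what was kept: Efnb3 and Sema4c were covered by 56.8% and 52.6% in WT DMSO, but under GSK343 by 12.9% and 32.8%.

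Some genes with DMSO peaks had no GSK343 peak, while over all genes with a DMSO peak 60.1% in WT and 49.6% in the mutant still had one. Epha6, Robo1 and Dcc had peaks in both DMSO lists and none under GSK343 in either genotype, in windows of 979, 1030 and 1108 kb and with coverage of at most 1.15%. Dcc had no DMSO peak in either genotype with a q-value of at most 0.01, a fold of at least 3 or a −log10 p-value of at least 5. The same held with every list cut to its top peaks. Another 5 genes with peaks in both DMSO lists had a GSK343 peak in 1 genotype only. Neither count was made over all genes. In WT alone it was Epha1 (5.24%), Epha2 (3.64%) and Plxnb2 (6.69%), and in the mutant alone Epha3 (0.10%) and Sema3a (0.04%). The last 2 values come from single peaks of 0.317 and 0.181 kb. Bases in a GSK343 peak outside any DMSO peak were found in 11 of the 49 genes with a GSK343 peak in WT (22.2% of all such genes) and in 0 of 48 in the mutant (4.13%), so the WT count is at the background.

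Some directions for single genes turned with the setting. Over the gene body alone, WT coverage was 0.54 percentage points higher under GSK343 at Efna4 and 0.23 higher at Epha1. Restricted to peaks at or above a fold of 3, it was 6.69 points higher at Plxnb2 and 0.03 higher at Robo2. With every list cut to its top peaks as above, Sema3a in the mutant was 0.04 points higher.

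The genotypes were compared within each treatment. In DMSO the mutant list covered more of the window in 47 of the 56 genes with a peak in either genotype, and 85.6% of all such protein-coding genes did the same. The whole mutant DMSO list was longer, at 134 Mb against 84.3 Mb, and the count of the group is close to that of all genes. Sema3f (77.9% in mutant, 47.6% in WT), Epha1 (26.2% and 9.80%) and Sema6c (80.2% and 65.4%) differed most in this direction. The reverse was seen at Sema4g (18.7% and 25.6%), Epha8 (35.2% and 40.4%) and Plxnb2 (6.01% and 8.75%), among 9 genes in all. Over the gene body alone 14 genes were lower in mutant DMSO, among them Sema6c (86.8% in mutant, 88.1% in WT). By the same measure Epha1 had 10.1% in mutant and 8.25% in WT, and Sema3f 70.3% and 36.5%.

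Under GSK343 the mutant list covered less in 36 of 51 genes, against 65.8% of all genes, again near the background. The largest shortfalls were at Efna4 (8.38% in mutant, 21.5% in WT), Efna2 (51.8% and 64.6%) and Sema4a (6.77% and 18.3%). Ephb3 (19.3% and 16.6%), Sema3f (18.5% and 15.9%) and Plxna1 (5.37% and 3.96%) went the other way. Of the 54 genes with a peak in both DMSO lists, the kept share was lower in the mutant in 40, higher in 11 and equal in 3. Over all 9099 protein-coding genes compared in this way it was lower in 50.8%, with genes that kept nothing in either genotype counted as equal. A gene that kept nothing in WT cannot be lower in the mutant, and such genes were more common in the background. In WT a GSK343 peak remained in 49 of 54 axon guidance windows with a DMSO peak, against 60.1% of all such windows. The 50.8% is therefore not a like-for-like level for the 40 of 54, and no excess of the group can be read from it. Coverage was higher in the mutant under DMSO and lower under GSK343 in 29 of the 51 genes with a peak under both treatments, against 56.4% of all such genes.

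Peaks were then placed relative to gene starts, for the 51 genes with an annotated start. As above, any overlap from 250 bases before a start to 50 after it counted. At least 1 start lay in a peak in 41 of 51 WT genes under DMSO (20.8% of all genes with a start) and 37 under GSK343 (14.4%), and in 43 mutant genes under DMSO (22.8%) and 31 under GSK343 (13.3%). Of the genes with a start in a DMSO peak, 37 of 41 also had one in a GSK343 peak in WT (68.2% of all such genes), and 31 of 43 in the mutant (57.5%). The 4 WT genes without one were Efnb2, Epha3, Sema6c and Sema6d, named because they are few. In the mutant, 12 genes were without one, among them Efna4, Epha1, Plxnb1 and Plxnb2.

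The mark was centred just inside the gene and narrowed under GSK343. At 0.5 kb downstream of the outermost start, 84.3% of the 51 genes were in a peak under DMSO and 74.5% under GSK343 in WT, against 84.3% and 64.7% in the mutant. At 2.5 kb downstream the shares were 64.7%, 29.4%, 62.7% and 23.5%. At 2.5 kb upstream they were 37.3%, 7.84%, 49.0% and 7.84%. At the position of the start itself, a narrower measure than the overlap counted above, they were 76.5%, 70.6%, 76.5% and 56.9%. The share was thus lower in the GSK343 list at each of these positions, and in WT by less at the start than at 2.5 kb on either side. At 5 kb upstream no gene was in a mutant GSK343 peak, against 29.4% in mutant DMSO (1.59% and 16.8% over all genes with a start). Over all 17274 such genes the shares at 0.5 kb downstream were 19.6%, 13.1%, 21.9% and 12.0%. At 2.5 kb downstream they were 13.1%, 4.58%, 16.5% and 3.84%, and at 2.5 kb upstream 13.3%, 3.39%, 18.8% and 2.62%. Lower shares under GSK343 and away from the start were thus general.

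**Figure D4:**
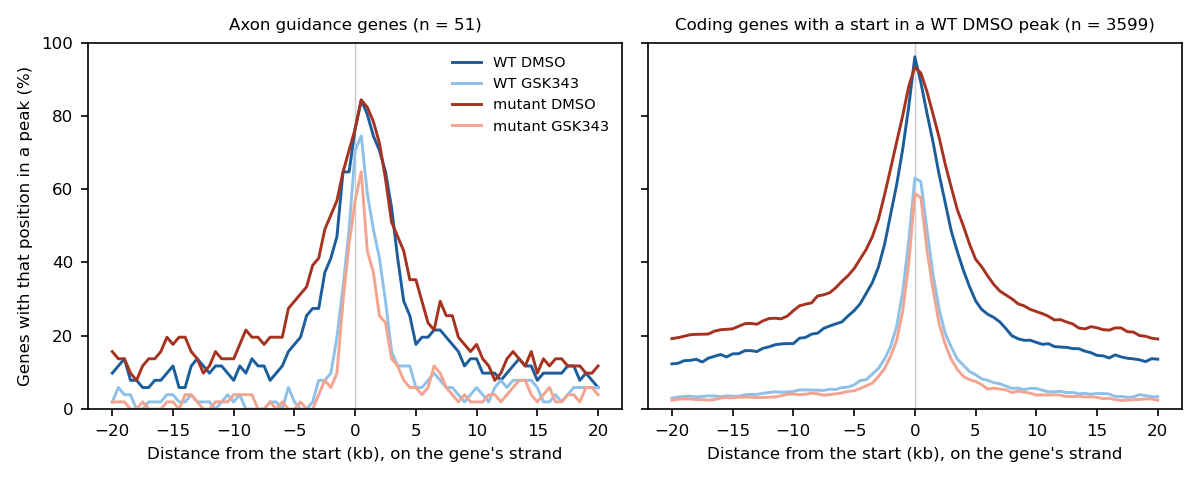
Percentage of genes with a given position in a peak, by distance in kb from the outermost start along the strand of the gene, for the 51 axon guidance genes (left) and for 3599 protein-coding genes chosen because a start lay in a WT DMSO peak (right); each line is 1 list. On the left the GSK343 lines peak at 74.5% (WT) and 64.7% (mutant) at 0.5 kb and lie below the DMSO lines beside the start.

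Counted in bases, the windows within 2.5 kb of a start were covered by 57.1% in WT DMSO, against 2.23% of the sequence farther away. In the mutant the values were 61.5% and 3.11%. Of the DMSO bases near a start, 61.3% were kept under GSK343 in WT and 48.6% in the mutant. Farther away 27.96% and 15.6% were kept. Over all protein-coding genes with a start, coverage under DMSO was 16.3% near and 3.44% far in WT, and 19.7% and 5.50% in the mutant. Far from a start the axon guidance genes were thus covered less than all genes. The kept shares of all genes had the same order at lower levels, with 47.5% near and 22.4% far in WT, and 34.4% near and 11.1% far in the mutant. Near and far were not separated by peak strength.

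CG dinucleotides were then counted in the 250 bases before each of the 67 starts. The motif searched was the letters CG, which read the same on both strands. The 36 starts in a peak in all 4 lists had a median of 20 CG, from 2 to 46. The 13 starts in a peak in at least 1 DMSO list but not in all 4 had a median of 11, from 0 to 30, and the 18 starts in no list had a median of 7.5, from 1 to 23. The classes overlap widely. At 10 or more CG were 70.1% of these starts, and 50.6% of all 21045 protein-coding starts.

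A CpG-rich start was in a peak more often in this group than over all genes. Of the 25 starts with 20 or more CG, 23 were in a WT DMSO peak, which is 92.0%, while over all protein-coding starts in that range it was 24.1%. Among the 10 starts with fewer than 5 CG, 5 were in a WT DMSO peak, against 11.2% of all such starts. The 2 CpG-rich starts outside a WT DMSO peak were those of Sema4b, the first of which is printed above beside the marked start of Efna2. Sema4a is the opposite case, since its outermost start, with the 2 CG visible near the 3′ end of the printed stretch, was in a peak in all 4 lists. A match of these letters is a description of the sequence, not evidence of binding.

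**Figure D5:**
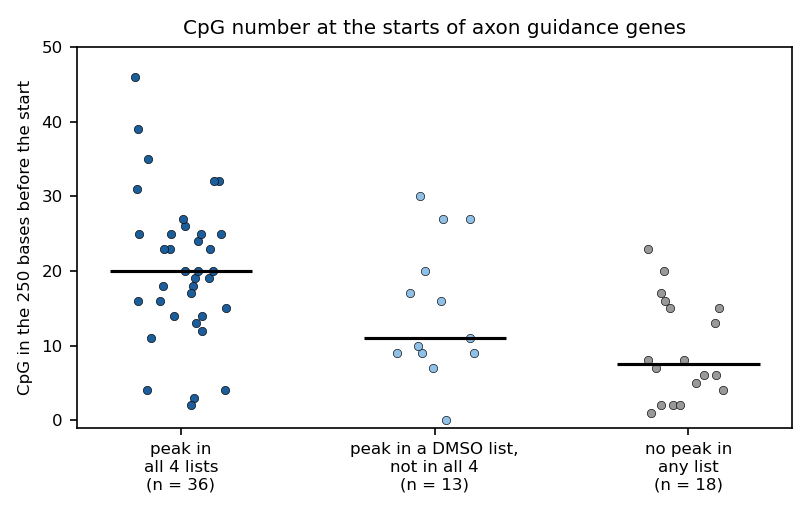
Number of CG dinucleotides in the 250 bases before each of the 67 starts of axon guidance genes, by whether the start lay in a peak in all 4 lists, in at least 1 DMSO list but not all 4, or in no list; each point is 1 start and bars are medians. The medians are 20, 11 and 7.5, and the points of the 3 classes overlap.

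Other genes of the pathway were listed for comparison. Of 20 ligands and receptors outside the group, such as Rgma and Ntn3, 17, 13, 17 and 13 were overlapped, with medians of 6.60%, 3.03%, 14.5% and 1.36%. Of 40 genes that act inside the cell downstream of these receptors, 24, 18, 25 and 18 were overlapped, with medians of 0.83%, 0, 2.32% and 0. The signalling genes had a median window of 128 kb. Of all genes in the longest of the 5 classes of window length, 60.4%, 41.4%, 65.6% and 40.6% were overlapped, so these counts are near that level. In WT DMSO the median of the 20 ligands and receptors was close to that of the 60 genes, and the median of the signalling genes lay below both. Within the signalling list, Rnd1, a small GTPase bound by plexins, had 86.9%, 47.9%, 96.9% and 37.0%. Enah, an actin regulator of growth cones, had 18.4%, 3.50%, 35.1% and 2.47%, while the widely used Rac1, Rhoa, Cdc42 and Cfl1 had no peak in any list.

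Markers of cell types served as a check of the label. The B cell genes Cd79a, Cd79b, Ms4a1, Pax5, Ebf1, Cd22, Blk, Fcer2a and Cr2 had no peak in any list. Of 5 T cell genes, 4, 3, 4 and 2 were overlapped, with Cd3e highest under DMSO at 64.8%, 14.7%, 86.9% and 0, and Cd8a without a peak in any list. Of 5 myeloid genes, 2, 2, 3 and 0 were overlapped, and of 5 neuronal genes 4, 3, 5 and 2. Over all protein-coding genes 43.5%, 26.3%, 48.9% and 24.4% were overlapped. Most of the axon guidance genes were overlapped, as were most of the T cell and neuronal genes under DMSO, and these B cell genes were not. The myeloid genes were mixed, with Itgam and Csf1r without a peak in any list.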

How the data were processed

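The data were 4 deposited lists of broad peaks of H3K27me3, 1 for each genotype and treatment, assigned by the prefix of the peak names, which also mention a pool of duplicates. The submitters' processing notes name Bowtie2 2.4.2, SAMtools 1.12, MACS2 2.2.7.1, bedtools 2.29.2, deepTools 3.5.1 and build mm10, without roles or settings. Peak positions are as deposited by the authors. The fold of a peak is a linear ratio over background from the authors' peak caller. The −log10 p-value and the −log10 q-value of each peak are also as deposited. Peaks absent from the running numbers, between 2.89% and 3.72% of a list, had been removed by the authors, and the file names mention a blacklist. No threshold common to the lists and no scaling between them is recorded, so covered lengths move with depth and with the calling threshold.

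Gene bodies came from RefSeq GRCm38, whose coordinates are those of mm10, and starts from RefSeq promoters of GRCm38.p6, found for 51 of 60 genes. Overlapping peaks of a list were merged and the covered share of each window computed (Python 3.11.15, numpy 2.4.6, pandas 2.3.3, matplotlib 3.10.9). A window counted as overlapped from 1 bp. The code was checked on 2000 simulated windows and gave the same value in 2000; against bedtools 2.31.1, 240 of 240 values were equal. No test was run, because each group has 1 list. The genes and all lists were chosen with earlier results of these data known.

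Named genes were Sema4a, Sema4d and Sema7a; the highest and lowest of each family in WT DMSO; the 5 largest and 5 smallest kept shares in WT among genes covered by at least 20%; genes with a GSK343 peak in 1 genotype only; the 3 largest differences between genotypes in each direction and treatment; and genes without a peak. This gave 41 genes, and further ones are named as examples. The 10 alternatives are given in the closing section. One gene of the B cell marker list is not reported here.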

Additional observations from a re-analysis of the deposited data

Results flagged for a closer look

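At 29 of the 60 axon guidance genes the mutant list covered more of the window than the WT list under DMSO and less of it under GSK343. Efna2, Efna4 and Sema4a are among them. The same pattern was present at 3470 protein-coding genes. Among windows with a peak in either genotype under each treatment, this is 29 of 51 axon guidance genes against 56.4% of all genes, so the group is at the background. Each group has 1 list, so this reversal between treatments was not tested.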

How the results depend on the processing

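The 10 alternatives gave 104 values for the counts and medians of the group: 92 stayed within 1.5 times the value as deposited and 12 moved further. Reversal was scored only for differences between treatments at single genes. Requiring an overlap of at least 5% of the window left 34, 24, 36 and 17 genes overlapped (WT under DMSO and GSK343, then the mutant likewise). The WT GSK343 median was 2.14% with a q-value of at most 0.01 or a fold of at least 3, and 1.99% when the −log10 p-value had to reach 5. The mutant GSK343 median was 1.49% under each of these 3 settings and 1.14% with peaks of at least 1 kb. Over the gene body alone, 14 genes were lower in mutant DMSO than in WT DMSO. The number of genes with lower coverage under GSK343 ranged from 45 to 53 in WT and from 45 to 56 in the mutant.

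For single named genes, 250 of 1312 covered shares and 166 of 656 differences between treatments moved by more than 1.5 times, and 6 differences reversed. In percentage points (GSK343 minus DMSO) these were 0.54 at Efna4 and 0.23 at Epha1 in WT over the gene body alone, 6.69 at Plxnb2 and 0.0252 at Robo2 in WT with a fold of at least 3, and 4.32 at Sema4a in WT and 0.037 at Sema3a in the mutant with the same number of top peaks. The cause was not tested, except that stricter settings leave fewer peaks. No paired analysis was possible because the replicates of a group share 1 peak list, which also means that no replicate could be left out. Depth is unknown, so an uncovered window means no peak in these lists.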

Other observations

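Of the 12 axon guidance genes with more than 1 annotated start, 6 had starts that differed in the mark, and 5 of these are described here. The same count was not made over all protein-coding genes, so whether 6 of 12 is usual cannot be told. Sema4a had 3 starts in a peak in all 4 lists, while the start farthest inside the gene, with 6 CG dinucleotides before it, was in none. At Plxnb2 the outer start was in a peak in every list but mutant GSK343, and the inner start in none. Robo2 was marked only at the innermost of its 3 starts, with 14 CG before it, against 8 and 4 at the starts outside a peak. At Sema6b the outer start, with 20 CG, was in a peak in all 4 lists and the inner one, with 5, in none. Sema6c showed the reverse, with its outer start (15 CG) in no peak and its inner start (0 CG) in a peak in both DMSO lists.

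Robo3, a Robo receptor outside the list of 60, had 56.5% of its window covered under DMSO and 27.1% under GSK343 in WT, and 5.30% and 17.1% in the mutant. Around it 1 peak number is missing from the WT DMSO list and 3 from the mutant DMSO list. The window of Pak1, a kinase of the signalling list, was in WT covered by 1.62% under DMSO and 3.14% under GSK343, and none of its WT DMSO bases lay in a WT GSK343 peak.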
